A study of Mus musculus with 2 samples.

Results

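A set of 9 transcription factor genes that are known from the red nucleus, the oculomotor complex and neighbouring midbrain populations were followed in embryonic mouse midbrain. They were Pou4f1, Pou4f2, Pou4f3, Nkx6-1, Nkx6-2, Phox2a, Isl1, Tbx20 and Six3, and they were chosen by name. All 9 were found among 42462 genes of the deposited tables that carried an Ensembl identifier and a GENCODE symbol. The study consists of 2 total RNA sequencing libraries of one group. Both came from midbrain of the B6NCrl strain at embryonic day 14.5, and no further allele or treatment is named. Each library came from the midbrain of 1 pup, and the pups were collected on different days. The libraries are called embryo 1 and embryo 2 here. Because there is only this group, no condition could be compared and no test was possible. Levels are given per embryo, and ratios between the embryos describe these 2 libraries only.

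The red nucleus is a midbrain relay for limb movement, and its neurons carry the POU class 4 factor Pou4f1 and, as they form, the homeobox factor Nkx6-1. The oculomotor and trochlear nuclei drive the eye muscles. Their motor neurons depend on Phox2a, a paired-type homeobox factor, and carry Isl1, a LIM-homeobox factor of motor and sensory neurons, with the T-box factor Tbx20. The POU class 4 genes also mark neurons of the tectum, the retina, sensory ganglia and the inner ear, and Six3, a factor of the anterior forebrain and eye, is also found in midbrain neurons.

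Of the 9 genes, 8 encode a homeodomain, a DNA-binding fold whose recognition helix carries a near-invariant run of residues. The coding sequence around that run is shown for Pou4f1, Pou4f2, Nkx6-2, Isl1 and Six3, because it shows how far apart the members lie in sequence, which bears on whether reads can be told apart. The 60-base windows were read from the GENCODE M21 transcripts on GRCm38 and run 5′ to 3′ on the gene's strand. Capitals mark the in-frame codons for tryptophan, phenylalanine, any residue, asparagine, any residue and arginine.
Pou4f1: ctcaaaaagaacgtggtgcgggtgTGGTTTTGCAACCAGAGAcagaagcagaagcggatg
Pou4f2: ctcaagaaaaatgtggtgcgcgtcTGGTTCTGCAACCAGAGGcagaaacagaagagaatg
Nkx6-2: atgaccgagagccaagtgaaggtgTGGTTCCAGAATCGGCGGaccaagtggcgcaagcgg
Isl1: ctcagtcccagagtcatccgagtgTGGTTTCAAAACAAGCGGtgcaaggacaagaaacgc
Six3: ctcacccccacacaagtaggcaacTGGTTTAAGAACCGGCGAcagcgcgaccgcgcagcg
The windows lie at chr14:104465750-104465809 (minus strand) for Pou4f1, at chr8:78434758-78434817 (minus) for Pou4f2, at chr13:116303094-116303153 (minus) for Isl1 and at chr17:85621975-85622034 (plus) for Six3. The Nkx6-2 window crosses an exon boundary and joins chr7:139581881-139581901 to chr7:139581650-139581688 (minus). In these windows Pou4f1 and Pou4f2 shared 50 of 60 bases (83.3%), whereas Pou4f1 and Six3 shared 26 of 60 (43.3%). The coding sequence of Tbx20 held 0 matches to the codon pattern. Tbx20 belongs to the T-box family and is not a homeobox factor, so the name homeobox holds for 8 of the 9 genes.

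Over whole transcripts, the longest run of identical bases was 71 between Pou4f1 and Pou4f2, 41 between Pou4f1 and Pou4f3, 35 between Pou4f2 and Pou4f3, and 17 between the NKX6 genes. No pair shared a window of 100 bases, the span implied by the deposited effective lengths. The expected counts of Pou4f1, Pou4f2, Pou4f3, Isl1, Phox2a, Nkx6-1 and Tbx20 were whole numbers. Those of Six3 and Nkx6-2 were fractional.

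The libraries held 32716141 expected counts in embryo 1 and 30185472 in embryo 2, of which spike-in RNAs took 3.15% and 3.32%. A count of 3, the limit that a count of 0 allows, corresponded to 0.157 TPM for a transcript of 1 kb in each embryo. TPM is a transcript level per length, set relative to all transcripts of the library. Sex is labelled as pooled for both libraries. Xist, the RNA of the inactive X chromosome, was at 0.01 TPM in embryo 1 and 61.99 TPM in embryo 2, and the Y-linked Eif2s3y was at 73.01 TPM in embryo 1 and 0 counts in embryo 2, so neither library showed the mixture that the label names. The libraries also differed in mesenchyme RNA: 7 connective tissue markers summed to 402 TPM in embryo 1 and 10.1 TPM in embryo 2, led by Col3a1, Col1a2 and Dcn, and all 6 with at least 100 summed counts were 2-fold or more higher in embryo 1. In bulk tissue, fewer cells of a type and less RNA per cell cannot be told apart, and this holds for every level below.

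Of the 9 genes, 7 were detected, meaning 1 TPM or more in each embryo, against a background of 59.5% of protein-coding genes (12786 of 21474). By mean TPM the order was Pou4f1, Pou4f2, Six3, Pou4f3, Nkx6-2, Isl1, Nkx6-1, Phox2a and Tbx20. The values of neighbouring genes in this order overlapped between embryos for 1 pair, Nkx6-2 and Isl1. Pou4f2 and Six3 were close: the deposited bounds around their TPM overlapped in embryo 1 (15.4 to 17.4 for Pou4f2 and 14.4 to 16.7 for Six3) and not in embryo 2 (17.6 to 19.7 for Pou4f2 and 14.3 to 16.5 for Six3). What confidence level those bounds have is not stated. The tissue thus held POU class 4 and Six3 RNA at higher levels than RNA of the NKX6, ISL and PHOX2 members.

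**Figure D1:**
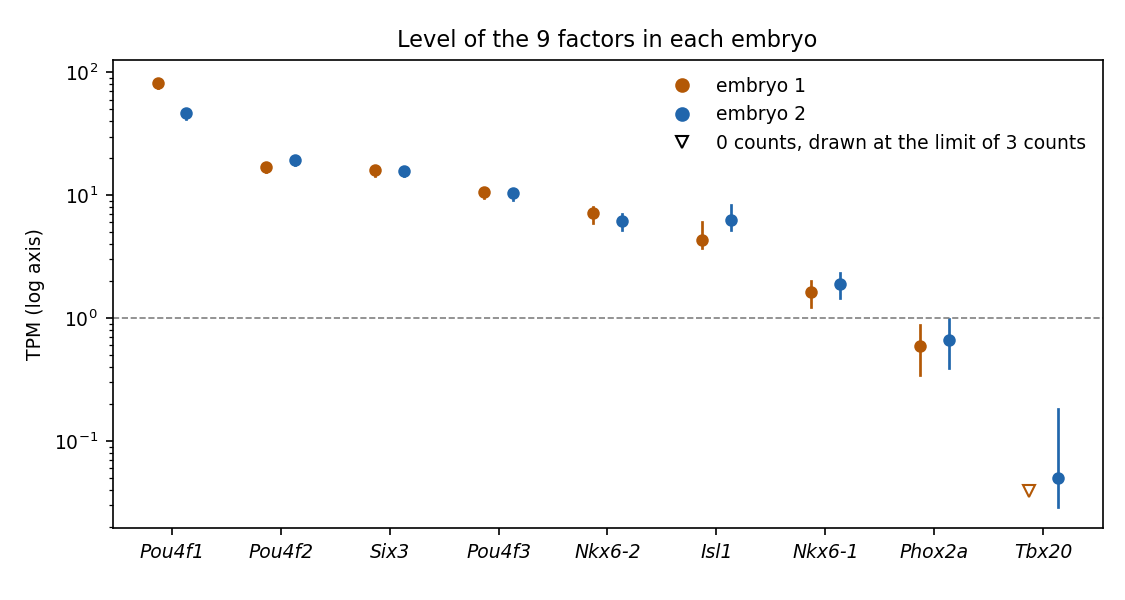
TPM of the 9 genes (log axis) in embryo 1 and embryo 2, ordered by mean TPM; points are the deposited TPM, vertical lines the deposited bounds and the dashed line a TPM of 1. Pou4f1 stands highest in both embryos, at 82.14 in embryo 1 and 46.65 in embryo 2, while Phox2a and Tbx20 lie below 1 in both.

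Pou4f1 (ENSMUSG00000048349.9, chr14:104461676-104467999, minus strand), also known as Brn3a, was the most abundant of the 9. It stood at 82.14 TPM in embryo 1 and 46.65 TPM in embryo 2 (64.4 ± 25.1, SD, n = 2), from 3391 and 2019 counts, and its mean exceeded that of 88.2% of protein-coding genes. That mean covers all its transcripts. Over transcripts with a coding sequence the mean was 26.4 TPM, for which no such percentage was computed. Embryo 1 was the higher of the 2, and the deposited bounds, 75.1 to 84.5 in embryo 1 and 41.6 to 48.9 in embryo 2, did not overlap. After scaling of the counts by the trimmed mean of M values (TMM), Pou4f1 was 1.52-fold higher in embryo 1 (95% counting interval 1.43 to 1.60). The interval covers counting error only, and with 1 library per embryo the difference has no replicate check.

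Pou4f2 (ENSMUSG00000031688.4, chr8:78433010-78436645, minus), or Brn3b, is best known as a determinant of retinal ganglion cells. It was at 16.83 TPM in embryo 1 and 19.19 TPM in embryo 2 (18.01 ± 1.67, SD, n = 2), from 1001 and 1139 counts. Its scaled counts were lower in embryo 1, the other way from those of Pou4f1, with a ratio of embryo 1 over embryo 2 of 0.793 (0.728 to 0.864). Pou4f3 (ENSMUSG00000024497.3), or Brn3c, is needed by hair cells of the inner ear. It was at 10.71 TPM in embryo 1 and 10.46 TPM in embryo 2 (10.6 ± 0.18, SD, n = 2), from 464 and 452 counts, the second smallest relative spread of the 9 after that of Six3. Its ratio of 0.927 had an interval that included 1 (0.812 to 1.06).

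The balance among the 3 POU class 4 genes can be read without any scaling between libraries. There were 3.39 counts of Pou4f1 per count of Pou4f2 in embryo 1 and 1.77 in embryo 2, which is a 1.91-fold contrast (1.72 to 2.12). Against Pou4f3, the Pou4f1 counts were 7.31 to 1 in embryo 1 and 4.47 to 1 in embryo 2, which is a 1.64-fold contrast (1.42 to 1.89). The counts of Pou4f2 per count of Pou4f3 were 2.16 in embryo 1 and 2.52 in embryo 2, and the interval of that difference included 1 (0.856, 0.731 to 1.003). Pou4f1 therefore differed between the embryos relative to both of its paralogs, while the other two held a ratio that the counts could not separate.

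Much of the TPM of Pou4f1 belonged to a short transcript without a coding sequence. This processed transcript (ENSMUST00000139505.1) is 799 bases long. It starts 2634 bases downstream of the coding transcript (ENSMUST00000053016.9), which is 4445 bases long, and shares 572 bases with its exons, none of them coding. The short transcript was at 49.35 TPM in embryo 1 and 26.64 TPM in embryo 2, or 60.1% and 57.1% of the TPM of the gene. By counts its share was 19.5% in embryo 1 and 17.7% in embryo 2, since TPM weights a short transcript more per read. The coding transcript was at 32.79 TPM in embryo 1 and 20.01 TPM in embryo 2. The difference between embryos was seen in both transcripts, 1.48-fold for the coding one (1.39 to 1.58) and 1.67-fold for the short one (1.47 to 1.91). How reads over the shared bases were divided could not be checked from these files.

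On coding transcripts alone the picture of the POU class 4 genes was more even. Pou4f1 then made up 54.4% of their summed TPM in embryo 1 and 40.3% in embryo 2, compared with 74.9% and 61.1% over all transcripts. Pou4f2 made up 27.9% in embryo 1 and 38.6% in embryo 2, and Pou4f3 17.8% and 21.1%. In embryo 2 coding Pou4f1, at 20.01 TPM, stood close to Pou4f2, at 19.19 TPM. These coding sums were taken after the gene totals had been seen.

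**Figure D2:**
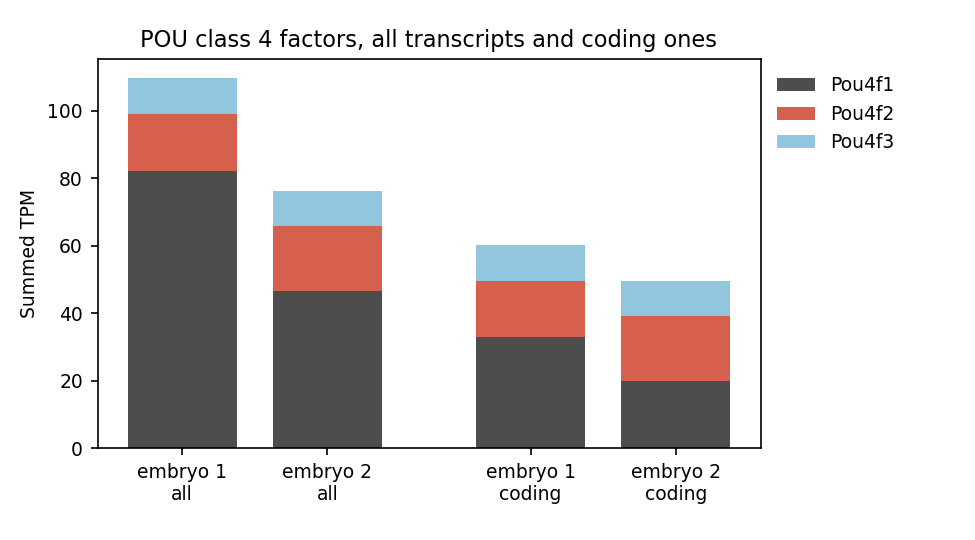
Summed TPM of Pou4f1, Pou4f2 and Pou4f3 (stacked) in embryo 1 and embryo 2, over all annotated transcripts at the left and over transcripts with a coding sequence at the right. The Pou4f1 segment is 82.14 TPM in embryo 1 and 46.65 TPM in embryo 2 over all transcripts, and 32.79 TPM and 20.01 TPM without the transcript that has no coding sequence.

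The NKX6 genes encode repressors of the ventral neural tube. Nkx6-2 (ENSMUSG00000041309.13, chr7:139579376-139582797, minus), which is also a factor of oligodendrocytes, was at 7.13 TPM in embryo 1 and 6.17 TPM in embryo 2 (6.65 ± 0.68, SD, n = 2), from 210.07 and 202.3 expected counts. Nkx6-1 (ENSMUSG00000035187.9, chr5:101658139-101664996, minus), the member of the pair best known from the red nucleus, was at 1.64 TPM in embryo 1 and 1.91 TPM in embryo 2 (1.78 ± 0.19, SD, n = 2), from 63 and 73 counts. Nkx6-2 was the higher of the pair in both embryos, 4.35-fold in embryo 1 and 3.23-fold in embryo 2 by TPM over all transcripts. On transcripts typed as protein-coding the direction turned in embryo 2, with Nkx6-2 at 3.16 TPM in embryo 1 and 0.95 TPM in embryo 2, beside Nkx6-1 at 1.64 and 1.91 TPM. The TPM of Nkx6-1 rests on a transcript of 2100 bases in the deposited tables, whereas GENCODE M21 gives the same transcript 3138 bases.

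The Nkx6-2 reads were divided between 2 annotated transcripts whose balance differed between embryos. The longer one (ENSMUST00000097974.4, 1907 bases), which GENCODE M21 types as subject to nonsense-mediated decay, was at 3.97 TPM in embryo 1 and 5.22 TPM in embryo 2. The shorter, typed as protein-coding (ENSMUST00000106095.2, 1299 bases), was at 3.16 TPM in embryo 1 and 0.95 TPM in embryo 2, or 44.3% and 15.4% of the gene. Its estimated counts were 2.996-fold higher in embryo 1 (1.84 to 5.08), while the gene as a whole had a ratio of 0.937 (0.769 to 1.14). The shorter transcript has 0 bases of its own, all 1299 being shared with the longer one, which has 608 further bases. The exons of Inpp5a, on the opposite strand, overlap the 3′ end of Nkx6-2 by 246 bases, and Inpp5a was at 18.04 TPM in embryo 1 and 16.33 TPM in embryo 2. No source used here states the strand setting, so reads from that overlap cannot be assigned to either gene. The overlap lies within the 608 bases that only the longer transcript has. The split between the 2 transcripts, and its difference between embryos, therefore carries the same limit.

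**Figure D3:**
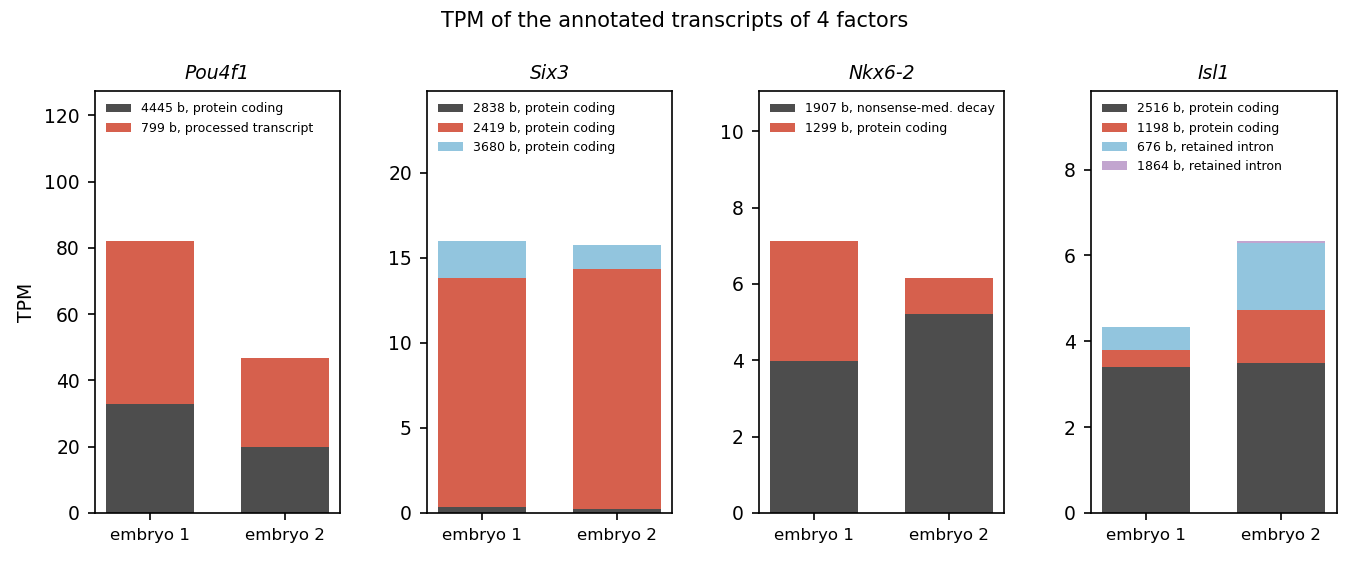
TPM of the annotated transcripts (stacked) of Pou4f1, Six3, Nkx6-2 and Isl1 in embryo 1 and embryo 2, each panel with its own axis from 0. The legends give each transcript's length in bases and its GENCODE M21 type. The 799-base transcript takes the larger part of Pou4f1 in both embryos, the 2419-base transcript that of Six3, and the 1299-base transcript of Nkx6-2 is larger in embryo 1 (3.16 TPM) than in embryo 2 (0.95 TPM).

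Of the oculomotor members, Isl1 was detected, and Phox2a and Tbx20 were below 1 TPM in both embryos. Phox2a (ENSMUSG00000007946.10, chr7:101818313-101822726, plus), which oculomotor and trochlear neurons need in order to form, was at 0.59 TPM in embryo 1 and 0.66 TPM in embryo 2 (0.62 ± 0.05, SD, n = 2), from 17 and 19 counts. The embryos gave nearly the same low value, with a ratio of 0.808 whose interval ran from 0.394 to 1.64. Inppl1, on the opposite strand, overlaps Phox2a by 95 exonic bases and was at 2.86 TPM in embryo 1 and 3.31 TPM in embryo 2.

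Isl1 (ENSMUSG00000042258.9, chr13:116298281-116309689, minus) was at 4.33 TPM in embryo 1 and 6.33 TPM in embryo 2 (5.33 ± 1.41, SD, n = 2), from 172 and 206 counts. Embryo 1 was the lower of the pair, with a ratio of scaled counts of 0.754 (0.612 to 0.927). The deposited bounds, 3.73 to 6.09 in embryo 1 and 5.19 to 8.39 in embryo 2, overlapped. The longest transcript (ENSMUST00000036060.8, 2516 bases) differed less, at 3.41 TPM in embryo 1 and 3.5 TPM in embryo 2, with a ratio of 0.882 (0.704 to 1.11). The rest of the difference lay in 2 short transcripts. The coding transcript of 1198 bases was at 0.39 TPM in embryo 1 and 1.22 TPM in embryo 2, and the retained-intron transcript of 676 bases was at 0.53 TPM in embryo 1 and 1.58 TPM in embryo 2, from 8.14 and 25.56 estimated counts for the first and 5.83 and 17.44 for the second. Isl2, the other islet gene, was at 3.42 TPM in embryo 1 and 2.83 TPM in embryo 2.

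Tbx20 (ENSMUSG00000031965.10, chr9:24718138-24774303, minus), a factor of heart and cranial motor neurons, had 0 counts in embryo 1, which allows up to 0.039 TPM there, and 6 counts in embryo 2, listed at 0.05 TPM. No fold is given at this depth. Tbx20 was thus near the limit of detection in both embryos, and no level could be set for it. Its main transcript also differs in length between the deposited tables (6436 bases) and GENCODE M21 (9091 bases).

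Of 10 other genes of cranial motor neurons, 7 were detected. The highest by mean TPM were Prph, an intermediate filament protein of peripheral axons, at 8.44 TPM in embryo 1 and 10.95 TPM in embryo 2, Isl2, and Ret, a receptor for the glial cell line-derived neurotrophic factors, at 2.49 TPM in embryo 1 and 2.4 TPM in embryo 2. Of the genes for acetylcholine signalling, the vesicular transporter Slc18a3 was at 1.53 TPM in embryo 1 and 1.81 TPM in embryo 2, the choline transporter Slc5a7 at 2.22 and 1.48 TPM, and Chat, which makes acetylcholine, at 0.10 and 0.15 TPM. Mnx1, a factor of spinal motor neurons that oculomotor neurons lack, had 0 counts in both embryos. None of the 7 genes of this list with at least 100 summed counts differed 2-fold between embryos.

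Six3 (ENSMUSG00000038805.10, chr17:85613608-85629302, plus) had the smallest relative spread of the 9, at 16 TPM in embryo 1 and 15.78 TPM in embryo 2 (15.9 ± 0.16, SD, n = 2), from 767 and 736 counts. The ratio of scaled counts was 0.941 (0.850 to 1.04). The transcript of 2419 bases (ENSMUST00000175898.3) carried 84% of the Six3 TPM in embryo 1 and 89.7% in embryo 2, and that of 3680 bases (ENSMUST00000176081.2) carried 13.8% and 8.94%. The leading transcript starts 7226 bases upstream of the other, and its first exon of 106 bases lies wholly within exons of Six3os1, an antisense RNA at 19.44 TPM in embryo 1 and 17.93 TPM in embryo 2. A second antisense gene, Gm28528, shares 168 exonic bases with Six3 and was at 0.68 TPM in embryo 1 and 0.36 TPM in embryo 2. Without the strand protocol, reads over these bases cannot be assigned to one strand.

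The RefSeq start of Six3 is that of the minor transcript of 3680 bases, so the 250 bases before it are internal to the leading transcript's span. They are shown because they mark that second start. The window is chr17:85620584-85620833 on the plus strand of GRCm38.p6, from RefSeq, and capitals mark TAAT, the core that many homeodomains bind, and CCAAT, the NF-Y box, on either strand (ATTA and ATTGG where the match is on the minus strand).
Six3: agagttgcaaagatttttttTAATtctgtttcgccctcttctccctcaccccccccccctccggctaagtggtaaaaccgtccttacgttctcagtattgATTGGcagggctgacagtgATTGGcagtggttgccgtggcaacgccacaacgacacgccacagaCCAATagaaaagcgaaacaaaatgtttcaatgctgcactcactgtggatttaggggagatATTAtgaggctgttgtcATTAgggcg
The window held 3 matches to TAAT and 3 to CCAAT, with no overlap between the motifs. TAAT was found in 54.9% and CCAAT in 33.8% of 32851 windows of the same length in the table. Of the members, 8 had a window, 4 of those held TAAT and 4 held CCAAT. A match is a description of the letters and no evidence of binding.

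Between the embryos, the members with enough counts stayed within 2-fold. Of the 7 members with at least 100 summed counts, 0 differed by 2-fold or more, against a background of 4.78% of all genes tested (670 of 14011). At a threshold of 1.5-fold, added after the data were seen, 1 member passed, Pou4f1, against a background of 14.2% of genes (1991 of 14011), so that a count of 1 in 7 is near the background. Of these 7, Pou4f1 was higher in embryo 1 and the other 6 were lower there with TMM scaling, although Pou4f3, Nkx6-2 and Six3 stood above 1 under spike-in scaling and as ratios of deposited TPM (1.02, 1.16 and 1.01), so no direction is drawn for those 3. The median log2 ratio of the members was -0.11, compared with -0.01 for all genes, and their median absolute log2 ratio was 0.33, compared with 0.23. The interval excluded 1 for Pou4f1, Pou4f2 and Isl1, although under spike-in scaling that of Isl1 included 1 (0.814, 0.661 to 1.001). The mesenchyme markers, given above, were also far higher in embryo 1, where Pou4f1 was higher; their part in the difference was not tested.

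**Figure D4:**
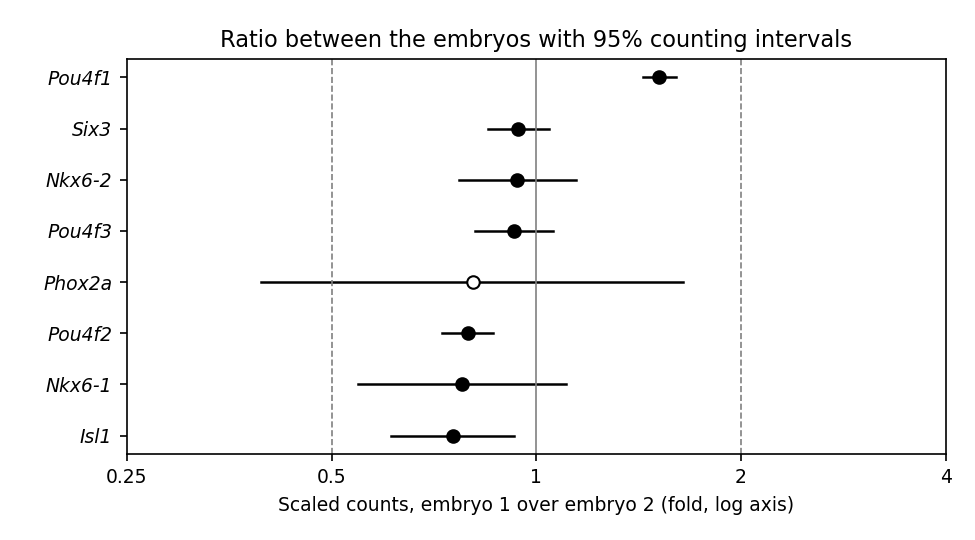
Ratio of TMM-scaled counts, embryo 1 over embryo 2 (log axis), for the 8 genes with counts in both embryos; lines are 95% counting intervals, the open point marks fewer than 100 summed counts and dashed lines mark 2-fold. Pou4f1, at 1.52, is the single gene to the right of 1 under this scaling, while Pou4f3, Nkx6-2 and Six3 pass to the right under spike-in scaling and as ratios of TPM, and no point lies beyond a dashed line.

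Within their families the members held different places. In the POU family, 11 of 15 genes were detected and Pou4f1 had the highest mean TPM, ahead of Pou3f2 (47.02 TPM in embryo 1 and 36.66 TPM in embryo 2), Pou2f2 (37.34 and 31.39 TPM) and Pou3f4 (29.36 and 36.90 TPM). On transcripts with a coding sequence Pou4f1 ranked 4 of 15, behind those 3 genes, so its first place rests on the short transcript. Six3 was the highest of 6 genes of its family, followed by Six5 at 2.03 TPM in embryo 1 and 1.19 TPM in embryo 2. Six6, a close relative of Six3 in eye and pituitary, had 2 counts in embryo 1 and 0 in embryo 2. Among 10 NKX2 and NKX6 genes, 3 were detected: Nkx6-2, Nkx6-1 and Nkx2-2, the last at 4.98 TPM in embryo 1 and 5.06 TPM in embryo 2. The level of Nkx6-2 includes the transcript typed as subject to nonsense-mediated decay. On transcripts typed as protein-coding, Nkx6-2 was at 3.16 TPM in embryo 1 and 0.95 TPM in embryo 2, and Nkx2-2 was not summed that way. Nkx6-3, the remaining NKX6 gene, had 1 count in each embryo. Of 17 T-box genes, 2 were detected, Mga at 33.25 TPM in embryo 1 and 27.63 TPM in embryo 2 and Eomes at 1.3 and 1.52 TPM, and Tbx20 was among the lowest. In embryo 1 alone 4 were at 1 TPM or more, the others being Tbx18 (2.58 TPM in embryo 1 and 0.07 TPM in embryo 2) and Tbx3 (1.7 and 0.3 TPM), both higher where the mesenchyme markers were higher; the part of mesenchyme in this was not tested.

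**Figure D5:**
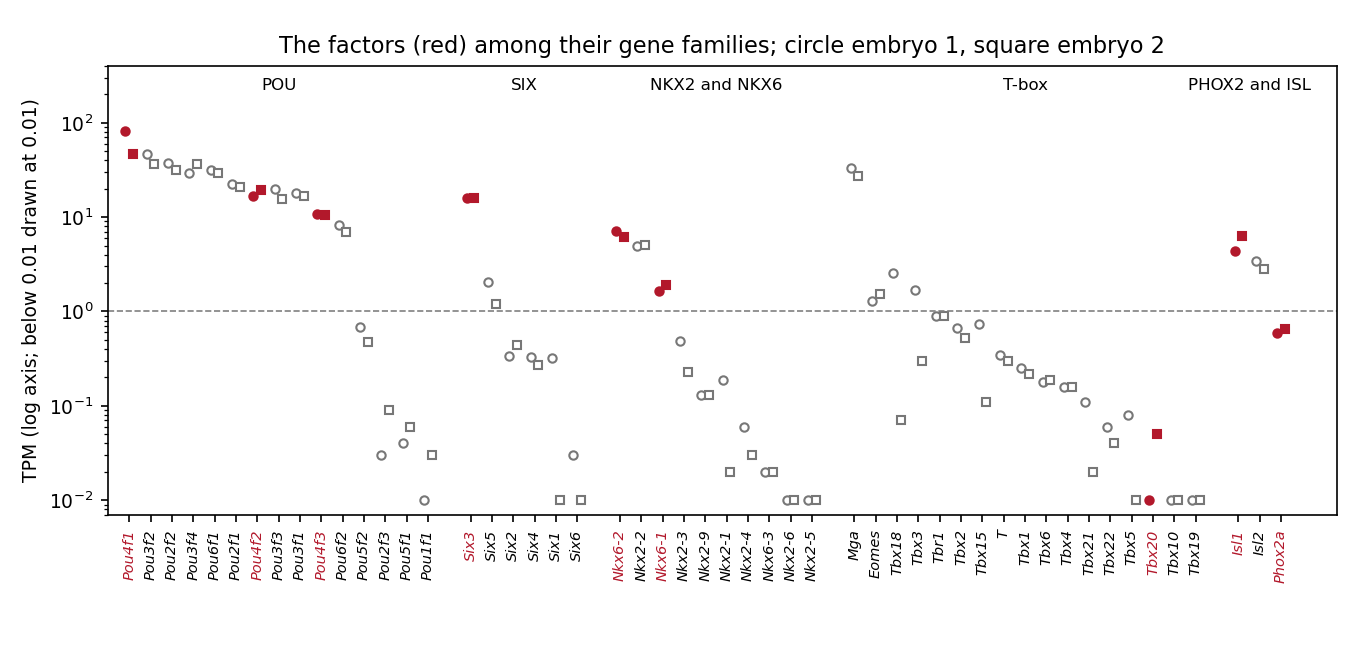
TPM (log axis, values below 0.01 drawn at 0.01) of genes of the POU family, the family of Six3, the NKX2 and NKX6, T-box, and PHOX2 and ISL groups, each ordered by mean; circles are embryo 1, squares embryo 2, red marks the 9 genes and the dashed line a TPM of 1. Over all transcripts Six3 and Nkx6-2 head their families, Nkx6-2 with its nonsense-mediated decay transcript included, whereas Tbx20 lies near the bottom of the T-box genes.

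The label midbrain was checked with regional genes. All 10 genes of a tectal list were detected, led by Tfap2b (189 TPM in embryo 1 and 192 TPM in embryo 2), Otx2 and Meis2, and so were 16 of 18 genes of a list for tegmental progenitors and neurons, led by Gad1, Gata3 and Foxp2. The background was 59.5% of protein-coding genes. In the tegmental list, Shh (0.47 TPM in embryo 1 and 1.52 TPM in embryo 2) and Sim1 (0.5 and 0.46 TPM) were not detected. The lowest detected were Lmx1b (1.38 and 1.82 TPM) and Foxa1 (1.93 and 2.45 TPM). The share of tegmentum in the tissue was not tested. Of 8 hindbrain markers, Hoxb1, Hoxb3 and Hoxa3 had 0 counts in both. Of 10 forebrain markers, 1 was detected, Neurod6 at 17.63 TPM in embryo 1 and 14.63 TPM in embryo 2, and in embryo 2 alone 2 were, with Emx1 at 0.91 TPM in embryo 1 and 1.24 TPM in embryo 2.

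Several members also mark other tissues, and the markers of those tissues were at these levels. Of 12 markers of sensory ganglia, which hold Pou4f1, Pou4f2, Pou4f3 and Isl1, 4 were detected, and the sum over all 12 was 58.1 TPM in embryo 1 and 58.0 TPM in embryo 2. Sncg, a synuclein found in many neurons, made up 44.93 of it in embryo 1 and 46.74 in embryo 2, and Runx3 had 0 counts in both. Of 8 retina markers, 3 were detected, Otx1 and Rlbp1 among them, and the sum was 22.8 TPM in embryo 1 and 19.8 TPM in embryo 2. The retinal factors Crx and Six6 had 5 and 2 counts in embryo 1 and 0 in embryo 2. Of 8 heart muscle markers, 2 were detected, with a sum of 3.96 TPM in embryo 1 and 4.83 TPM in embryo 2, and Nkx2-5, Gata4 and Hand2 had 0 counts in both. The ganglion sum was nearly equal in the embryos, but most of it was Sncg, so it does not measure ganglion tissue. Of the 6 ganglion markers with at least 100 summed counts, 4 were higher in embryo 1 and 2 in embryo 2 with TMM scaling. After Sncg the highest were Calca (embryo 1 over embryo 2, 1.09, 0.769 to 1.54) and Prrxl1 (1.45, 1.13 to 1.87). The part of ganglion, retina and heart tissue in the members' levels was not tested.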

How the data were processed

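Total RNA longer than 200 nt was taken from 1 midbrain per library by mirVana extraction, and libraries were made from 10 ng with ERCC spike-in RNAs, per the labels' protocols, which name a SmartSeq procedure. Per the text record deposited with the samples, reads were aligned to mm10 and quantified against GENCODE M4; the quantifier and the strand setting were not stated in any source used here. Per the file headers, the authors deposited an expected count, a TPM (with posterior mean TPM and bounds) and an FPKM for each gene, and the same count and TPM for each transcript. TPM is per length and keeps no depth, so depth was read from the expected counts. Strain, age and replicate number came from the labels.

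Ensembl identifiers were matched to GENCODE M21 symbols, 42462 of 43346; 26249 other rows, with 6 counts in embryo 1 and 14 in embryo 2, were left out. Levels are TPM as deposited, with mean and SD over 2 embryos. Ratios used expected counts scaled by TMM (edgeR 4.0.16), unrounded since no count model was fitted, a prior count of 0.5 for log2 values and an exact conditional binomial 95% interval. A gene counted as different at 2-fold with at least 100 summed counts, and as detected at a TPM of 1 in both embryos. The ratio step was run on simulated counts with known folds. These held counting error only and the same library sizes, so the run checks the calculation and not variation between embryos. Upstream windows came from RefSeq (GRCm38.p6). Some listed genes and sequences are not reported here. Pou4f3 was matched in the expression tables and has no window in that table.

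All 9 members were described with every transcript at 10% or more of the TPM. From each list of related or marker genes the counts detected and the highest non-members were taken, together with genes within 5 kb of a member; Chat, Slc18a3, Slc5a7, Six6, Nkx6-3, Crx, Tbx3 and those in the closing section were added after their values were seen. The members and lists were chosen with earlier results of these data known. No paired analysis was possible because there is 1 group. Alternatives changed the scaling, count filter, TPM minimum, unit, transcripts used and embryos kept.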

Additional observations from a re-analysis of the deposited data

How the results depend on the processing

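The order of the 9 genes by mean TPM was the same with posterior mean TPM, FPKM and counts over the longest transcript. Over single embryos 7 to 9 genes kept their place, Nkx6-2 and Isl1 trading theirs in embryo 2, and with protein-coding transcripts only, an alternative added after seeing the data, the same 2 traded places (7 kept). Nkx6-2 averaged 2.06 TPM on that basis, below 1 TPM in embryo 2, and Pou4f1 26.4 TPM; over the longest transcript Pou4f1 averaged 32.5 TPM and Six3 10.97 TPM. The share of genes past 2-fold, 4.78% at 100 summed counts, was 11.2% at 10 counts, 2.54% at 500 counts and 14.1% with no filter. It was 14.2% at 1.5-fold. Members past the threshold numbered 0, but 1 with no filter (Tbx20, on 6 counts) and 1 at 1.5-fold (Pou4f1). Deposited TPM and spike-in scaling moved the median log2 ratio of all genes to 0.13 and 0.11; the log2 ratio of Pou4f1 was then 0.82 and 0.71, and that of Nkx6-2 was 0.21 by TPM, against -0.09 with TMM, and Pou4f3 and Six3 likewise stood slightly above 0 by both. Depth limits Phox2a (17 and 19 counts) and Tbx20 most. No paired analysis was possible because both libraries belong to 1 group.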

Other observations

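Genes of dividing and newly formed neurons in the tegmental list did not all run the same way between the embryos; these genes were picked after their values were seen. Neurog1 and Neurog2, proneural factors that start neuron formation, were higher in embryo 1. Neurog1 stood at 7.33 TPM in embryo 1 and 2.85 TPM in embryo 2, a 2.33-fold ratio of scaled counts (95% counting interval 1.80 to 3.02). Neurog2 stood at 14.97 TPM in embryo 1 and 7.79 TPM in embryo 2, a 1.74-fold ratio (1.51 to 2.00). Others were lower in embryo 1, although the median log2 ratio of the 17 genes of that list with at least 100 summed counts was -0.05. Foxa2 stood at 4.11 TPM in embryo 1 and 6.35 TPM in embryo 2, a ratio of 0.604 (0.490 to 0.743) and Lmx1b at 1.38 and 1.82 TPM, a ratio of 0.687 (0.539 to 0.873), whereas the interval of Nkx2-2 included 1 (0.842, 0.664 to 1.07). Among motor neuron genes, Lhx4 was lower in embryo 1, at a ratio of 0.608 (0.480 to 0.768), Slc5a7 was higher, at 1.35 (1.09 to 1.68), and Isl2 was at 1.04 (0.779 to 1.39). These are values of 2 libraries with no replicate check.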
